A study of Oryza sativa with 32 samples.

Results

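Cellulose synthases are the membrane enzymes that spin glucose from UDP-glucose into the cellulose chains of the plant cell wall. The 9 rice genes named CESA1 to CESA9 were followed here. The family was chosen with earlier results of these data known. Its probe sets were then found by symbol or synonym in the array's probe-to-gene table and the rice gene table. The 9 genes matched 13 of the 57381 probe sets on the array. They are 9 of the 17905 genes that the annotation pairs with a probe set of their own. CESA1, CESA2, CESA3 and CESA4 had 2 probe sets each and the other genes had 1 each. None of the 13 was shared with another annotated gene, and all 13 were bright enough to be tested in both tissues.

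In each enzyme complex several different CESA proteins work together at the plasma membrane. One kind of complex lays down the thin primary wall of growing cells, and another lays down the thick secondary wall of xylem vessels and fibres once growth has ended. In rice CESA4, CESA7 and CESA9 make up the secondary wall complex, and loss of any of them gives the brittle culm phenotype, in which stems snap because the secondary wall is thin. CESA1, CESA3 and CESA8 are known as primary wall subunits, and CESA2, CESA5 and CESA6 were counted in the same class.

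The plants were rice of the cultivar Nipponbare, in 8 groups of 4 biological replicates with 1 array each. The groups were the root and the shoot of 3 independently made transgenic lines and of wild type. The lines were AGR1/7, AGR1/8 and also AGR3/8. The lines carry OsANT1:HvAlaAT, a barley alanine aminotransferase driven by the promoter of the rice OsANT1 gene, and the labels do not name the cells in which it is active. All plants, wild type included, grew in hydroponics with 5 mM ammonium as the nitrogen source at 28 °C and 70% humidity, in light of 750 µE for 14 h and darkness for 10 h a day, and RNA was taken at mid-day at maximum tillering.

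The tissue labels were checked against marker genes. The 12 probe sets of photosynthesis and chlorophyll genes summed to intensities of 402 to 1018.8 on root arrays and 37819 to 84230 on shoot arrays. LSI1, a silicon uptake channel of roots, averaged 6155 ± 638 in wild type root and 290.6 ± 41.7 in wild type shoot (SD, n = 4 each). LSI2, its efflux partner, averaged 4759 in wild type root and 0.98 in wild type shoot, whereas NAAT1, an enzyme of phytosiderophore synthesis, did not separate the tissues (1200.2 in root and 1203 in shoot). There were 2 root arrays that stood apart on the cellulose synthases. Wild type replicate 1 was the highest of the 16 root arrays on 11 of the 13 probe sets, and AGR1/7 replicate 1 was the lowest on 11 of 13. These arrays also had the lowest quality weights among the root arrays, 0.194 and 0.301, so the main root results are given with and without them.

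In wild type, nearly all cellulose synthase transcripts were far more abundant on root than on shoot arrays. Differences are given as log2 of the intensity plus 16, a constant that shrinks the differences of dim probe sets. Of the 13 probe sets, 12 were higher in root at an adjusted p under 0.05 in the limma fit, and the same 12 had every wild type root array above every wild type shoot array. Across all probe sets tested, 31.9% were higher in root and 27.4% had root arrays all above shoot arrays. Without wild type root replicate 1, 12 of the 13 also passed. The median difference of the 13 was then 2.97, against 3.25 with that array.

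CESA8, a primary wall subunit, had the largest difference of the 13, at 4.25 ± 0.19 (log2, SE, adjusted p = 2.35e-18). Its intensity was 2317.0, 1548.0, 1695.9 and 1492.6 in wild type root, against 72.1, 72.7, 87.9 and 72.4 in wild type shoot. CESA1 followed at 4.16 on its brighter probe set and 3.25 on the other, and CESA6 at 3.82. CESA3 differed by 3.73 and 3.59 on its 2 probe sets and CESA5 by 3.28.

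The secondary wall genes were also higher in root. CESA4 differed by 1.94 on its first and 3.25 on its second probe set, CESA7 by 3.13 and CESA9 by 1.81, each ± 0.29 to 0.38 (SE). CESA7 had intensities of 674.5, 189.1, 135.5 and 269.0 in wild type root, against 7.7, 24.8, 13.2 and 20.5 in wild type shoot. The root and shoot values of CESA7 did not overlap, but those of the shoot lay close to the added constant of 16. With a constant of 1 in place of 16, CESA7 differed by 4.02, CESA9 by 3.00 and CESA4 by 2.27 and 4.13.

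CESA2 was the exception among the 9 genes. Its first probe set had intensities of 83.3, 27.6, 26.6 and 32.8 in wild type root, against 25.5, 6.0, 11.1 and 11.8 in wild type shoot, and was higher in root by 0.93 ± 0.28 (adjusted p = 0.00444). Its second probe set stayed between 1.6 and 26.3 over all 32 arrays and differed by 0.16 ± 0.21 (adjusted p = 0.53). The probe sets of CESA2 thus gave unequal pictures, both at low intensity.

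**Figure D1:**
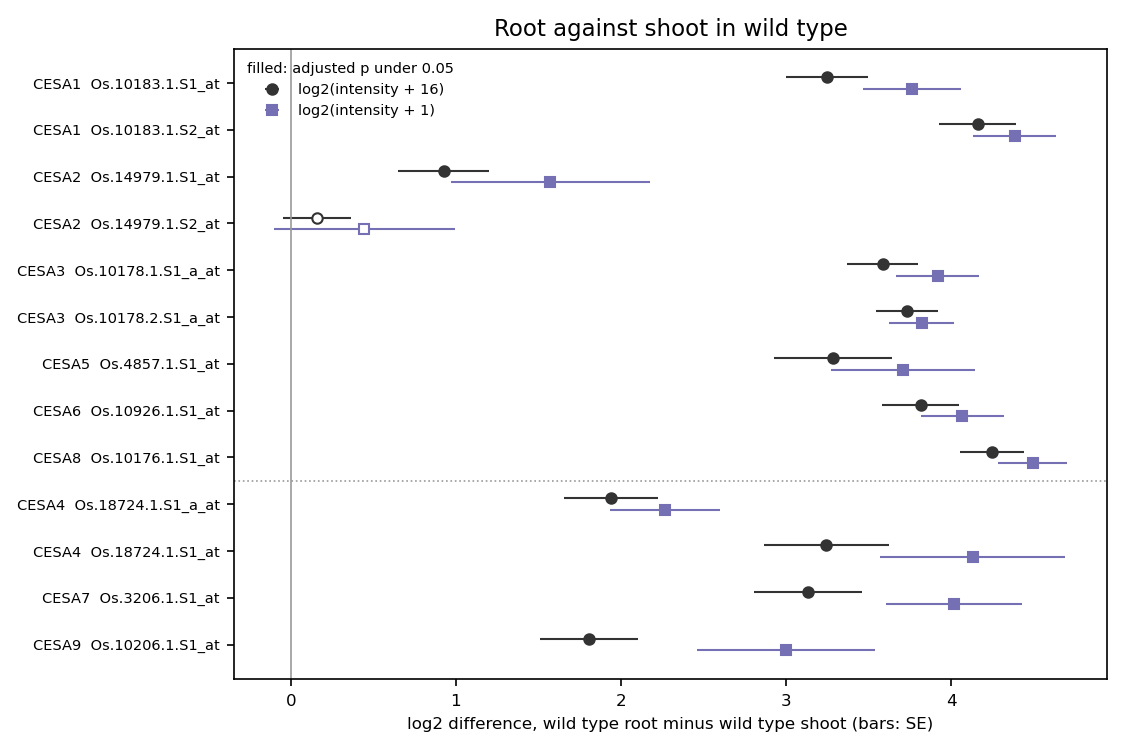
Difference between wild type root and wild type shoot for each of the 13 probe sets, on the horizontal axis in log2 units with standard errors as bars, for an added constant of 16 (circles) and 1 (squares); the dotted line separates primary wall genes (above) from secondary wall genes (below) and filled symbols have an adjusted p under 0.05. All 13 lie to the right of 0, with the second CESA2 probe set nearest to it and not called. CESA9, CESA7 and the second CESA4 probe set move most between the constants.

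To set the classes side by side without comparing 1 probe set's level with another's, each probe set was centred on its own mean over the 32 arrays, probe sets of a gene were averaged, and the genes of a class were averaged. The wild type root minus shoot difference was 2.51 ± 0.46 for the 3 secondary wall genes and 3.21 ± 0.23 for the 6 primary wall genes (log2, SE over arrays). The gap of -0.70 between the classes shrank to -0.13 with the constant of 1. It was -1.07 when only the brightest probe set of each gene was used. Without wild type root replicate 1 the differences were 2.10 and 3.04, and the gap was -0.94. Its size thus depended on how dim values were treated, on the probe sets and on that array. In the lines the same differences were 1.49 and 2.08 in AGR1/7, 1.84 and 2.89 in AGR1/8, and 1.42 and 2.63 in AGR3/8 for secondary and primary wall genes.

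The second comparison was between the roots of the transgenic lines and wild type roots. Cellulose synthase signal was lower in the lines. Taking the mean of the 3 lines minus wild type, 7 of the 13 probe sets fell at an adjusted p under 0.05 and none rose, whereas 2.04% of all probe sets tested fell and 5.32% changed in either direction. The 7 were both probe sets of CESA1, both of CESA3, and those of CESA6 and CESA8, all primary wall genes, together with 1 of the 2 probe sets of CESA4. Over the 13, the median change was -0.88 log2, beside 0.03 over all probe sets tested, with a range of -1.10 to 0.10. In whole tissue, fewer cells of a type and less RNA per cell cannot be told apart.

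CESA3 gave the tightest result. On its brighter probe set, the intensities were 1360.8, 2244.2, 2469.2 and 2477.2 in AGR1/7, 2228.8, 2133.3, 1986.0 and 2353.0 in AGR1/8, and 2043.2, 2000.7, 1955.9 and 1944.3 in AGR3/8, against 3084.6, 2934.0, 3289.4 and 3164.6 in wild type. All 12 transgenic arrays lay below the lowest wild type array, and wild type replicate 1 was within its group. The change was -0.58 ± 0.12 log2 (SE, adjusted p = 0.0119), and the probe set passed the test with each of the 16 root arrays left out in turn. The dimmer CESA3 probe set changed by -0.74 ± 0.16 (adjusted p = 0.0183), with 11 of 12 transgenic arrays below the lowest wild type array.

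CESA1 and CESA8, which with CESA3 are the best known primary wall subunits, fell by a similar amount. CESA8 had 451.5, 1086.2, 987.5 and 989.1 in AGR1/7, 1359.0, 1066.6, 937.8 and 1363.6 in AGR1/8, and 1016.4, 875.6, 907.3 and 947.3 in AGR3/8, against 2317.0, 1548.0, 1695.9 and 1492.6 in wild type. Its change was -0.83 ± 0.18 log2 (adjusted p = 0.0184). On the brighter CESA1 probe set the values were 402.1, 1012.3, 893.7 and 952.8 in AGR1/7, 1432.1, 1107.4, 862.8 and 1451.7 in AGR1/8, and 953.7, 771.8, 804.0 and 879.0 in AGR3/8, against 2379.5, 1625.8, 1592.9 and 1583.3 in wild type. For both genes every transgenic array was below every wild type array, with AGR1/8 nearest to wild type. CESA1 changed by -0.93 ± 0.20 (adjusted p = 0.0167) on this probe set and by -0.99 ± 0.23 (adjusted p = 0.0267) on the other.

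CESA6 fell by 1.04 ± 0.23 log2 (adjusted p = 0.0206), and its change without wild type replicate 1 was -0.73. Its values were 302.4, 650.8, 631.5 and 692.4 in AGR1/7, 851.0, 633.8, 558.2 and 892.7 in AGR1/8, and 643.1, 495.5, 522.0 and 534.8 in AGR3/8, against 2386.2, 976.7, 1148.7 and 896.8 in wild type. The groups did not overlap, although the highest AGR1/8 array (892.7) came within a few units of the lowest wild type array (896.8), and wild type replicate 1 was far above its group. CESA5 changed by -0.88 ± 0.26 without passing the test (adjusted p = 0.0587), and 10 of 12 transgenic arrays were below its lowest wild type array.

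CESA2 was again different. Its first probe set changed by -0.55 ± 0.21 (adjusted p = 0.133) and its second by 0.10 ± 0.17 (adjusted p = 0.758). On the first, AGR3/8 had 12, 14.1, 13.6 and 16.9, against 83.3, 27.6, 26.6 and 32.8 in wild type. AGR3/8 therefore did not overlap wild type on this probe set, whereas AGR1/7 (8.7 to 36.8) and AGR1/8 (18.5 to 30.8) did.

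Without overlap between the 12 transgenic arrays and the 4 wild type arrays, 4 of the 13 probe sets were lower in the lines, beside 0.643% of all probe sets tested. These were the brighter probe sets of CESA1 and CESA3 and those of CESA6 and CESA8.

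**Figure D2:**
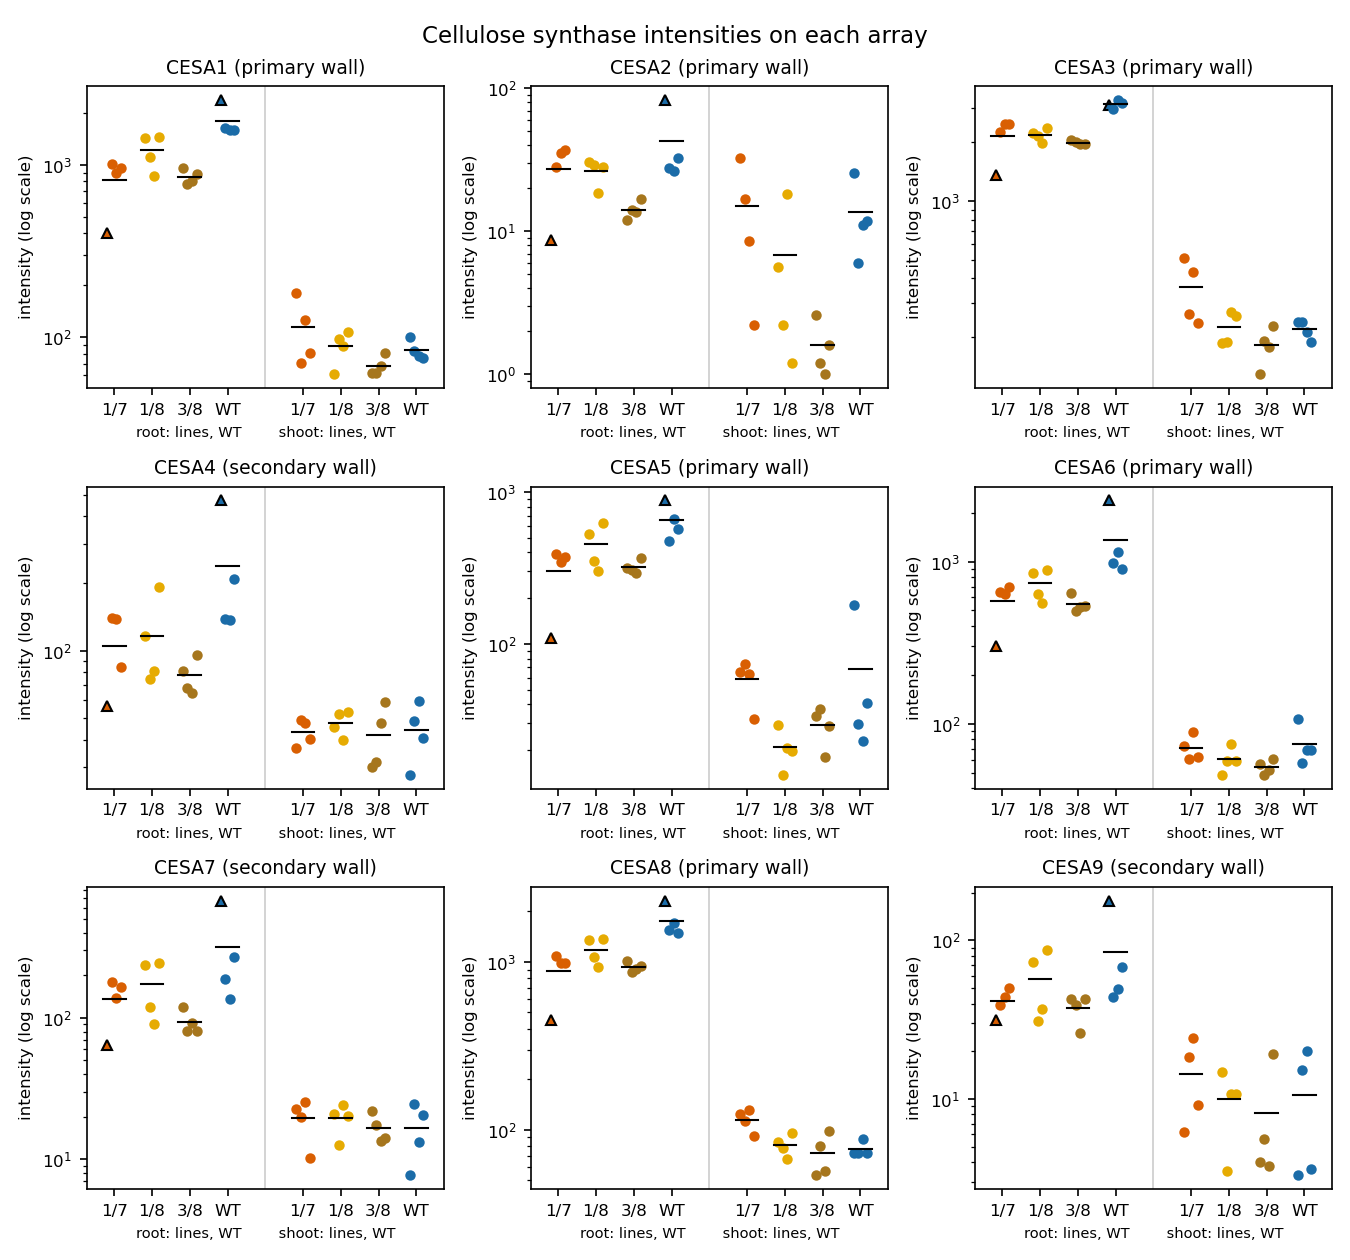
Intensity on every array (points, log axis) for the brightest probe set of each of the 9 genes, with root groups on the left and shoot groups on the right of each panel in the order AGR1/7, AGR1/8, AGR3/8, wild type (WT); bars are group means of 4 arrays and outlined triangles mark wild type root replicate 1 and AGR1/7 root replicate 1. In CESA1, CESA3, CESA6 and CESA8 all root points of the lines lie below those of wild type, whereas in CESA4, CESA7 and CESA9 the lower wild type points lie among those of the lines.

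The secondary wall genes had changes of the same size but a wider spread between replicates. CESA4 changed by -1.04 ± 0.29 log2 on its first probe set (adjusted p = 0.046) and by -1.10 ± 0.37 on its second (adjusted p = 0.0859). CESA7 changed by -0.995 ± 0.33 (adjusted p = 0.0861) and CESA9 by -0.59 ± 0.26 (adjusted p = 0.178). Their pooled SD within root groups was 0.50 to 0.73 log2, against 0.21 to 0.51 for the primary wall probe sets. Of these 4 probe sets 1 passed the test, and that call was lost in 12 of the 16 fits that left out 1 root array, and in a fit blocked on replicate number (adjusted p = 0.0607).

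CESA4 on its second probe set had 49.0, 129.9, 137.2 and 128.3 in AGR1/7, 286.3, 114.0, 82.4 and 286.6 in AGR1/8, and 131.5, 108.3, 81.8 and 91.6 in AGR3/8, against 784.8, 187.9, 154.2 and 261.3 in wild type. CESA7 had 64.5, 179.7, 137.4 and 166.7 in AGR1/7, 237.7, 119.9, 90.1 and 246.5 in AGR1/8, and 118.7, 81.4, 92.5 and 80.4 in AGR3/8, against 674.5, 189.1, 135.5 and 269.0 in wild type. CESA9 was dimmer, with 31.4, 39.4, 43.7 and 50.4 in AGR1/7, 72.6, 30.9, 37.2 and 87.6 in AGR1/8, and 42.6, 38.9, 26.0 and 42.9 in AGR3/8, against 177.9, 44.1, 49.5 and 67.8 in wild type. In all 3 genes wild type replicate 1 stood far above every other root array, and AGR1/8 split into a higher pair (replicates 1 and 4) and a lower pair (replicates 2 and 3). On the first CESA4 probe set the pattern was the same, with 116.4 and 193.6 on AGR1/8 arrays 1 and 4 and 74.5 and 81.0 on arrays 2 and 3, and 471.4 on wild type array 1 against 136.5 to 210.0 on the other wild type arrays.

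Wild type replicate 1 raised the 2 classes unequally. It was above the mean of the other 3 wild type root arrays on 4 of 4 secondary wall probe sets, with a median difference of 1.61 log2, and on 8 of 9 primary wall probe sets, with a median of 0.57. AGR1/7 replicate 1 was below its group on 4 of 4 secondary wall probe sets, with a median difference of -1.01 log2, and on 8 of 9 primary wall probe sets, with a median of -1.08.

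Leaving out wild type replicate 1 left 1 of 13 probe sets past the test, the brighter CESA3 probe set (-0.59 ± 0.13, adjusted p = 0.030), and 12 of 13 changes stayed below 0. Leaving out AGR1/7 replicate 1 as well, a choice made after seeing the values, brought 6 probe sets past the test, the same 6 primary wall probe sets of CESA1, CESA3, CESA6 and CESA8. Their changes then ran from -0.52 to -0.69. The 2 arrays were left out for being extreme on these same probe sets. No share of all probe sets is given for these fits, so the 6 calls are not read as particular to the family. The median change of the 13 was -0.63 without wild type replicate 1 and -0.55 without both arrays, beside 0.01 over all probe sets in either fit. The secondary wall changes were smaller in that fit, at -0.59 and -0.53 for CESA4, -0.47 for CESA7 and -0.19 for CESA9, with adjusted p between 0.159 and 0.698. With the 3 lines treated as random units, none of the 13 passed, and the brighter CESA3 probe set had the lowest adjusted p (0.0585).

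**Figure D3:**
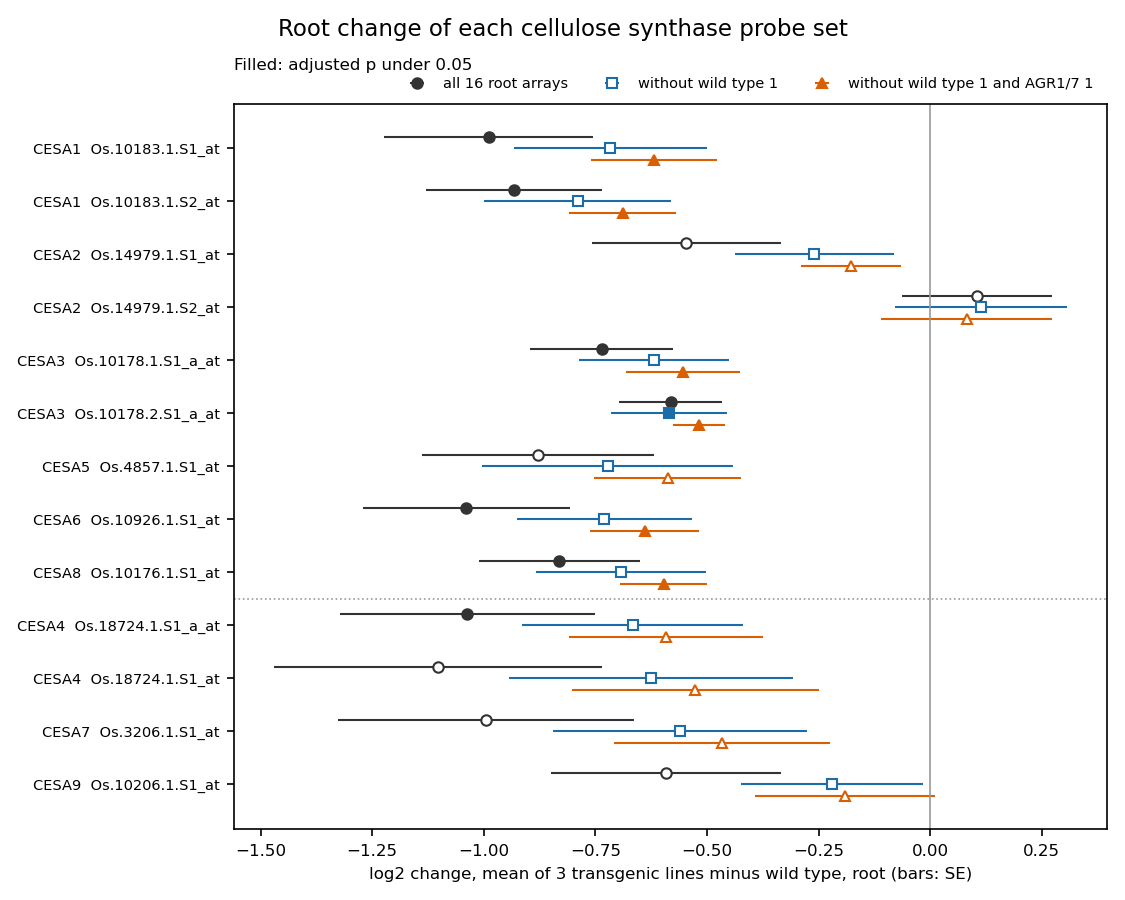
Change of each probe set between the mean of the 3 transgenic lines and wild type in root, on the horizontal axis in log2 units with standard errors as bars, with all 16 root arrays (circles), without wild type replicate 1 (squares) and also without AGR1/7 replicate 1 (triangles); filled symbols have an adjusted p under 0.05 and the dotted line separates primary wall genes (above) from secondary wall genes (below). The brighter CESA3 probe set keeps both its position and its call, and CESA4 and CESA7 shift most toward 0.

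Averaged by class, the root change was -0.89 for the secondary wall genes and -0.77 for the primary wall genes. The difference between the classes, -0.12, was smaller than the SD of that difference among the 4 wild type root arrays (0.58), and without wild type replicate 1 it was 0.12 in the opposite direction. The centred class means in root were 0.66 ± 0.42 in AGR1/7, 0.97 ± 0.62 in AGR1/8, 0.43 ± 0.17 in AGR3/8 and 1.57 ± 0.86 in wild type for secondary wall genes (SD, n = 4 each). For primary wall genes they were 1.04 ± 0.51 in AGR1/7, 1.39 ± 0.31 in AGR1/8, 1.05 ± 0.10 in AGR3/8 and 1.93 ± 0.36 in wild type. AGR3/8 had the tightest values of the 4 root groups in both classes.

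**Figure D4:**
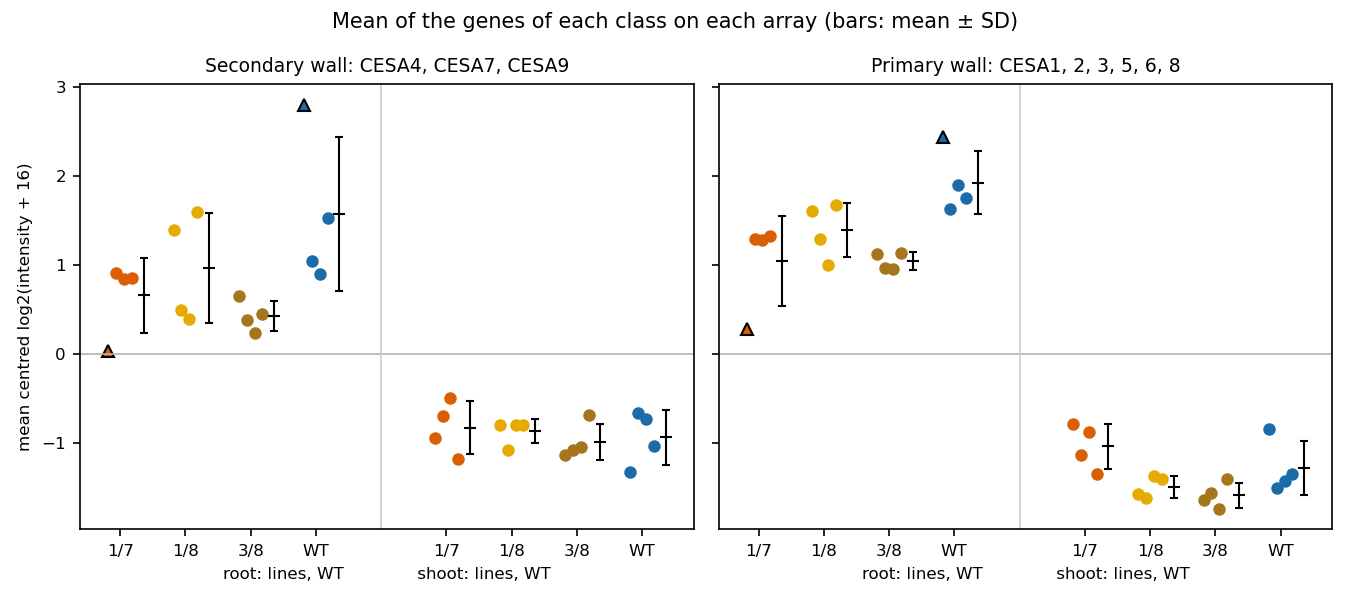
Mean of the centred log2(intensity + 16) over the genes of each class, secondary wall on the left and primary wall on the right, on each array (points) of the 8 groups, with the mean ± SD of 4 arrays as bars; outlined triangles mark wild type root replicate 1 and AGR1/7 root replicate 1. In both classes every root array lies above 0 and every shoot array below it, and wild type root replicate 1 is the highest point.

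Taken line by line, all comparisons in root share the same 4 wild type arrays. In AGR1/7, 4 probe sets fell (the brighter ones of CESA1 and CESA3, and those of CESA6 and CESA8), beside 0.949% of all probe sets, and 6 had all AGR1/7 arrays below all wild type arrays, beside 4.41% of all probe sets. In AGR3/8, 7 fell, the same 7 as in the mean of the lines, beside 2.21% of all probe sets. In the fit with a replicate block 5 of these passed, without CESA4 (adjusted p = 0.0541) and CESA8 (adjusted p = 0.0522). Of the 13, 12 had all AGR3/8 arrays below all wild type arrays, beside 6.89% of all probe sets. In AGR1/8, none passed the test, beside 1.23% lower among all probe sets. There 12 of 13 changes were below 0 (median -0.57) and 7 had an unadjusted p under 0.05 in the limma fit. Without wild type replicate 1 these counts were 11 and 2. No share of all probe sets at the unadjusted threshold is given, so that count is not read as a result. On 5 probe sets, both of CESA3 and those of CESA1 (brighter), CESA6 and CESA8, every AGR1/8 array was below every wild type array, beside 3.65% of all probe sets. The median change of the 13 was -0.97 in AGR1/7 and -0.95 in AGR3/8. Without wild type replicate 1 the medians were -0.60 in AGR1/7, -0.37 in AGR1/8 and -0.80 in AGR3/8. With AGR1/7 replicate 1 also left out, the AGR1/7 median was -0.38, near that of AGR1/8 (-0.37), and that of AGR3/8 was -0.80.

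The changes of CESA1 illustrate the spread between lines. On its dimmer probe set the change was -0.97 in AGR1/7, -0.62 in AGR1/8 and -1.38 in AGR3/8, each ± 0.29 log2 (SE). The moderated F test for any difference between the 3 lines called none of the 13 probe sets in root, beside 2.99% of all probe sets tested, with adjusted p from 0.312 to 0.856 and none under an unadjusted p of 0.05. A lack of calls does not show that the lines were alike. Leaving out both outlying arrays, that test called the dimmer CESA1 probe set and the first CESA2 probe set. The share of all probe sets called in that fit is not given, so these calls are not read as particular to the family. Across the alternatives run, the calls of this test over all probe sets ran from 736 to 3709, beside 1139 in the main fit.

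In shoots no cellulose synthase change passed the test. Signal was mostly lower than in root, but not all genes were dim. Shoot group means were 182.2 to 360.35 on the brighter CESA3 probe set and 72.0 to 114.2 for CESA8, whereas shoot array medians were 14.1 to 17.8. For the mean of the lines minus wild type, 0 of 13 probe sets passed in limma, none had an unadjusted p under 0.05, and the median change was 0.03 with a range of -0.44 to 0.16. Across all probe sets, 1.57% were called. Each line taken alone also had no called probe set, beside 1.6%, 1.82% and 0.868% of all probe sets in AGR1/7, AGR1/8 and AGR3/8. At an unadjusted p under 0.05 in limma there were 2 probe sets in AGR1/7, 1 in AGR1/8 and 2 in AGR3/8. No share of all probe sets at that threshold is given beside them.

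The larger upward shoot differences belonged to AGR1/7. CESA8 had 123.0, 112.1, 130.1 and 91.7 in AGR1/7 shoots, against 72.1, 72.7, 87.9 and 72.4 in wild type shoots. These groups did not overlap, beside 5.3% of all probe sets with AGR1/7 shoots all higher, but the change of 0.49 ± 0.15 did not pass the test (adjusted p = 0.127). The brighter CESA3 probe set had 507.8, 264.4, 432.8 and 236.4 in AGR1/7 shoots, against 239.8, 238.4, 214.1 and 189.1 in wild type shoots, a change of 0.61 ± 0.20 (adjusted p = 0.162). It also had the smallest p of the test among the 3 lines in shoot (adjusted p = 0.0514). That test called no probe set of the 13, beside 2.26% of all probe sets. In it 6 of the 13 had an unadjusted p under 0.05, for which no share of all probe sets is given.

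CESA5 varied most among shoots. It had 65.6, 74.0, 63.7 and 32.2 in AGR1/7, 29.3, 13.7, 20.5 and 19.7 in AGR1/8, and 33.4, 37.4, 18.0 and 28.7 in AGR3/8, against 181.0, 29.6, 22.9 and 40.5 in wild type. A single wild type shoot array, replicate 1, was far above the rest. The change in AGR1/8 shoots was -0.87 ± 0.36 (adjusted p = 0.277). The first CESA2 probe set differed by -0.71 ± 0.27 in AGR3/8 shoots, also without passing the test (adjusted p = 0.215). CESA4 on its second probe set, CESA7 and CESA9 stayed between 2.4 and 28.4 on all shoot arrays, so differences among shoot groups were not detectable near background for these probe sets.

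The root effect was also set against the shoot effect in a single fit over all 32 arrays. CESA8 was the only probe set of the 13 to pass, at -0.99 ± 0.22 log2 (SE, adjusted p = 0.0198), beside 0.797% of all probe sets with a lower effect in root. Without wild type root replicate 1 it did not pass, and no other probe set did. The 2 probe sets of CESA1 (-1.04 and -0.97, adjusted p = 0.0517 and 0.0526) and the dimmer of CESA3 (-0.89, adjusted p = 0.0539) lay just short of the threshold.

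Ordering the 8 groups by mean intensity gave the same upper end for all 9 genes on their brightest probe set. From low to high, the shoot groups came first, then the root groups of the lines, with AGR1/8 the highest line in 8 of the genes and wild type root at the top in all 9. The AGR1/7 root means include its low replicate 1. By group median AGR1/7 was above AGR1/8 for CESA3 (2356.7 and 2181.05) and CESA4 (111.15 and 98.7). In CESA2 the shoot and root groups were interleaved, and AGR1/7 was the highest line. Wild type root did not overlap the next group in CESA1, CESA3, CESA6 and CESA8 and overlapped it in the other 5 genes. Neighbouring shoot groups overlapped each other in every gene.

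The genes were also compared by how single arrays deviated from their group mean. In root, Pearson's r between pairs of genes had a median of 0.92 within the secondary wall class (3 pairs), 0.90 within the primary wall class (15 pairs) and 0.79 between the classes (18 pairs), over 16 arrays. Without the 2 outlying arrays the medians were 0.88, 0.78 and 0.68 over 14 arrays. Lowest of all in that set was the pair of CESA3 and CESA7, at 0.34, and highest was that of CESA6 and CESA8, at 0.94. In shoot the medians were 0.29, 0.43 and 0.04. These values describe the arrays and carry no test, since all genes of a pair share the same arrays and their scaling.

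**Figure D5:**
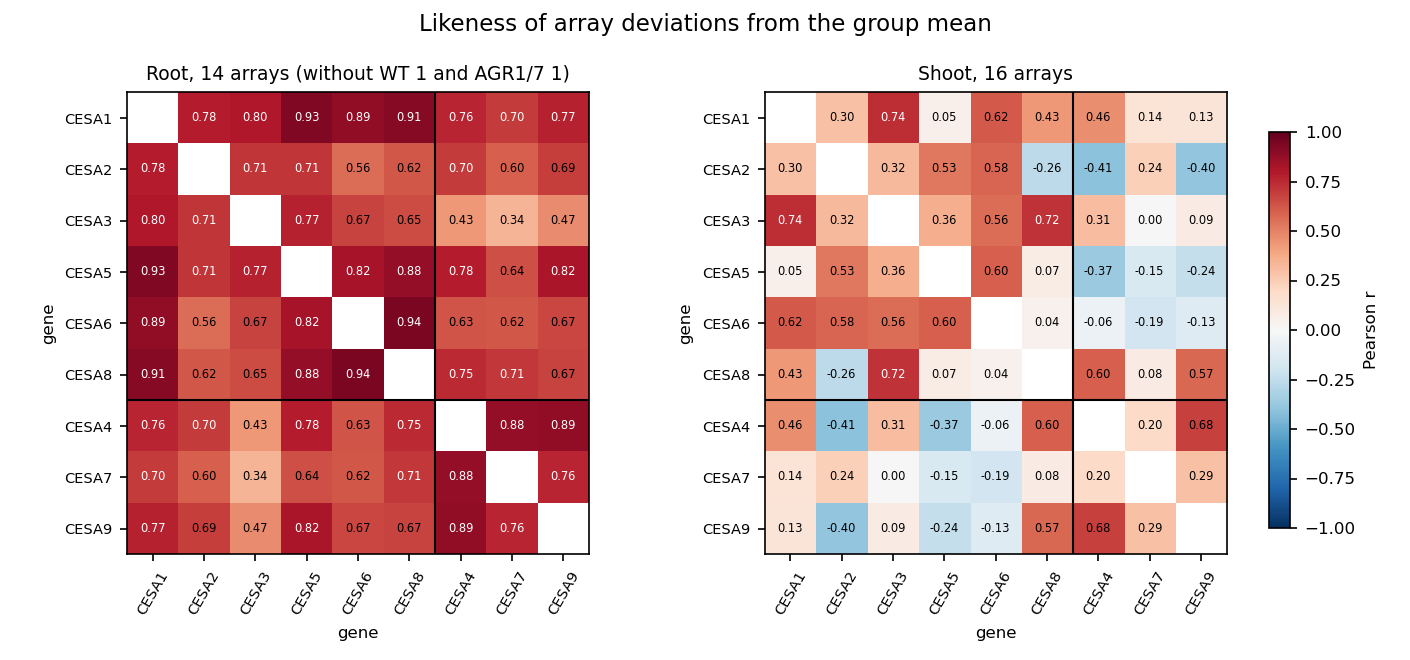
Pearson's r between pairs of genes for the deviations of arrays from their group mean, in root over 14 arrays (left) and in shoot over 16 arrays (right), with red for positive and blue for negative values; black lines separate the primary wall genes from CESA4, CESA7 and CESA9. Root values are positive for all pairs and high within CESA4, CESA7 and CESA9, and shoot values are mixed in sign between the classes.

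Among 2299 named genes outside the family, those most like each class over the 32 arrays, after removal of the tissue means, were chosen by Pearson's r. For the secondary wall class they were SWEET1A, a sugar transporter (0.91), TUB4, a beta-tubulin (0.91), LSI6, a silicon transporter (0.90), KOB1, whose Arabidopsis namesake is needed for cellulose synthesis (0.90), and CYCB2, a mitotic cyclin (0.90). For the primary wall class they were GLU2 (0.91), TUB8, another beta-tubulin (0.90), UGD3, a UDP-glucose dehydrogenase that makes precursors of other wall sugars (0.89), MTR1 (0.89) and LOC4347685, which carries the synonym cellulase (0.88). CESA6 alone was closest to CSLF6, the synthase of mixed-linkage glucan (0.92), then UGD4 (0.90), LOC4347685 (0.90), TUB8 (0.89) and GLU2 (0.89). Without the 2 outlying root arrays the values of these genes ran from 0.74 to 0.87.

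Other genes of wall synthesis were counted from lists made by symbol, for the mean of the lines in root. Over all probe sets tested 2.04% fell and 3.28% rose, the shares beside which the following counts stand. Of 7 probe sets of cellulose partners, 1 fell and none rose, with a median of -0.81, or -0.22 without wild type root replicate 1. The probe set that fell was that of GLU2 (-0.82 ± 0.22, adjusted p = 0.0446). BC1, a COBRA-like protein whose loss gives brittle culms, changed by -0.81 ± 0.28 without passing (adjusted p = 0.0898). Of 22 probe sets of cellulose synthase-like genes, which make other wall glucans and mannans, 4 fell and none rose, with a median of -0.15. CSLA1 changed by -0.92, CSLC9 by -0.91 and CSLC7 by -0.89.

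Of 11 probe sets of xylan and other wall glycosyltransferases, 4 fell and none rose, with a median of -0.52. GT43A, a xylan backbone enzyme, changed by -1.21 ± 0.23 (adjusted p = 0.00882) and IRX9L by -0.60 and -0.57 on 2 probe sets. Of 37 probe sets of lignin synthesis genes, 9 fell and 1 rose, with a median of -0.27. ROMT-17, an O-methyltransferase, changed by -1.12 and -1.01 on 2 probe sets and 4CL-3, a coumarate ligase, by -0.90, whereas the laccase LAC15, named after its value was seen, rose by 0.83.

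Of 7 probe sets of genes that supply UDP-glucose, 2 rose, the sucrose synthases SUS4 (0.36) and SUS2 (0.22), beside 3.28% of all probe sets, and none fell. Of the 7 changes 4 were below 0, with a median of -0.23, and neither call remained without wild type replicate 1. Of 28 probe sets of expansins and xyloglucan enzymes, which loosen the wall, 1 fell, EXPB11 (-0.78), with a median of -0.38. In the shoot 2 of 98 probe sets of these lists passed the test, or 2.04%, beside 1.57% of all probe sets. They were 4CL-3 (-0.53) and CAD (-0.72), an alcohol dehydrogenase of lignin synthesis.

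Without wild type root replicate 1 the counts were 0 lower for cellulose partners, 1 for cellulose synthase-like genes, 3 for xylan enzymes, 4 for lignin genes and 0 for expansins, with no call higher in any of these lists or among the genes of UDP-glucose supply. The medians without that array were -0.22 for cellulose partners, -0.10 for cellulose synthase-like genes and -0.34 for xylan enzymes. They were -0.21 for lignin genes, -0.17 for expansins and xyloglucan enzymes and -0.02 for UDP-glucose supply. Without both outlying arrays the counts were 1, 4, 5, 8 and 1 lower, with 1 lignin probe set higher.

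Markers of dividing cells were measured beside the cellulose synthases in root. Summed over 21 probe sets of cyclins, B-type cyclin-dependent kinases, MCM and PCNA genes, the intensity was 729.1 to 1589.3 for AGR1/7, 1221 to 2116.3 for AGR1/8, and 905.7 to 1231.4 for AGR3/8, against 1569.6 to 3450.6 in wild type. The mean sum was 1270.2 in AGR1/7, 1641 in AGR1/8 and 1091 in AGR3/8, against 2060.2 in wild type, or 1597 in wild type without replicate 1, which is below AGR1/8. The highest sum was on wild type replicate 1 and the lowest on AGR1/7 replicate 1, the same arrays that were extreme for the cellulose synthases. Of 17 probe sets of the list that could be tested none passed in limma. The median change was -0.63 with 15 of 17 changes below 0, or a median of -0.37 without wild type replicate 1. In limma 10 of the 17 had an unadjusted p under 0.05, for which no share of all probe sets is given. For phloem there was 1 marker, SUT1, a sucrose transporter, and 1 gene cannot stand for a cell type. SUT1 rose by 1.19 log2 in the mean of the lines in root and passed the limma test, beside 3.28% of all probe sets that rose. Its intensities were 40.6 to 74.2 for AGR1/7, 57.3 to 80.2 for AGR1/8, and 49.7 to 99.8 for AGR3/8, against 13.1 to 27.9 in wild type. The part of dividing and phloem cells in the result was not tested. The 3′ to 5′ signal ratio of the bright GAPDH controls, a sign of RNA quality, overlapped among all root groups, between 2.25 and 3.40. Within that range the highest ratios of the 16 root arrays were those of AGR1/7 replicate 1 (3.40) and wild type replicate 1 (3.29), whereas on the actin controls the same arrays had the lowest ratios (2.60 and 2.30). The part of RNA quality in the root result was not tested.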

How the data were processed

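Total RNA was hybridized to a 1-colour rice array, 32 arrays in 8 groups of 4, per the labels. The deposited intensity values are linear, with 1 decimal. After 2% was trimmed from either end, all arrays had a mean of 100.0, so the authors' table had been scaled per array, by software not given in the labels or files.

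Intensities were taken as log2(intensity + 16). In each tissue 187 control probe sets and the dimmest 33.3% were left out, and 38129 probe sets were tested with limma 3.58.1 in R 4.3.3 (lmFit, eBayes with trend). Root and shoot had separate fits of 16 arrays, and contrasts across tissues used all 32. Adjustment of p-values (Benjamini-Hochberg) covered all probe sets tested, with calls under 0.05. The annotation paired 22436 probe sets with 1 gene, 95 with several and 34663 with none, and names came from the rice gene table of assembly ASM3414082v1.

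All cellulose synthase probe sets are named. Of each gene list, up to 3 called members with the largest change are named, otherwise the brightest, with a few others for their known role. The members and lists were chosen with earlier results of these data known, and the lists for fasciclin-like genes and secondary wall regulators matched no probe set. No replicate block was used, since replicate numbers did not pair every group. On simulated data for the root contrast over 38129 probe sets, 34% of 50 changes of 0.5 log2 were recovered, 72% of 0.8, 84% of 1 and 100% of 2. The changed probe sets were picked at random. Noise was normal and independent between arrays and probe sets, without outlying arrays. These shares therefore do not give the power for the cellulose synthases in root. The number of arrays limits the precision. Alternatives were other added constants, no filter, other scaling, array weights, a replicate block, lines as random units, a joint fit and leaving out arrays.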

Additional observations from a re-analysis of the deposited data

Results flagged for a closer look

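In 15 of 104 sets of 4 arrays, the highest or lowest array stood apart from the other 3 by more than Dixon's limit. Chance gives about 1 in 20 for independent sets of normally distributed values. The 13 probe sets share the same arrays and linear intensities were used, so the count cannot be set against that rate. Of the 15, 10 were in root, 5 for AGR1/7 replicate 1 and 4 for wild type replicate 1. AGR1/7 root replicate 1 was low on the dimmer CESA3 probe set (350.5), CESA4 (49.0), CESA5 (109.5), CESA6 (302.4) and CESA8 (451.5). Wild type root replicate 1 was high on CESA1 (2379.5), CESA2 (83.3), CESA4 (784.8) and CESA6 (2386.2). AGR1/8 root replicate 3 was low on the dimmer CESA3 probe set (377.3). In shoot, AGR1/7 replicate 3 was high on CESA1 (59.8), AGR3/8 replicate 1 on CESA2 (12.8), AGR3/8 replicate 4 on CESA9 (19.3), wild type replicate 1 on CESA5 (181.0) and wild type replicate 3 on CESA8 (87.9).

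The transgenic effect on CESA8 differed between root and shoot by -0.99 log2 in a test of the difference itself (limma, adjusted p = 0.0198). The change was -0.83 in root and 0.16 in shoot.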

How the results depend on the processing

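The 12 probe sets were higher in wild type root than shoot under every alternative run. For the mean of the lines in root, 7 called probe sets became 6 to 9 under other constants, scaling, filter, weights, block or joint fit, and 0 with lines as random units. Leaving out 1 array gave 1 to 8, with the 1 from leaving out wild type replicate 1. For AGR1/7 the 4 became 2 without the filter, 1 with the replicate block and 7 in the joint fit, and 1 to 6 when 1 array was left out (1 without wild type replicate 1, and 2 without wild type replicate 3, AGR1/8 replicate 1 or 2, or any AGR3/8 array). For AGR1/8 the 0 became 1 with quantile normalization, 1 with array weights, 2 without both outlying arrays, and 0 to 3 when 1 array was left out (3 without AGR1/7 replicate 1, 1 without wild type replicate 2). For AGR3/8 the 7 became 5 without the filter, 5 with the replicate block, 10 with array weights, 10 in the joint fit, 9 without both outlying arrays, and 0 to 10 when 1 array was left out (0 without AGR3/8 replicate 2 or 3, 2 without replicate 4, 3 without wild type replicate 1). The test among lines in root gave 2 with array weights, 2 without both outlying arrays and 0 otherwise; in shoot it gave 1 in the joint fit and 0 to 2 when 1 array was left out (2 without wild type replicate 1 or AGR3/8 replicate 4). The difference between root and shoot effects gave 6 with a constant of 64, 5 with quantile normalization, 4 with array weights, 2 with the replicate block and 0 to 5 when 1 array was left out, with the 0 from wild type root replicate 1. In root, deviations of arrays with the same replicate number had r from -0.17 to 0.42 (median 0.05), over 0.1 in 9 of 24 pairs. They passed 0.1 at all 4 numbers between AGR1/8 and AGR3/8, at 3 of 4 between AGR1/8 and wild type, and at no more than 1 for the other pairs of groups. Of 16 root arrays 6 were closest to their own number, and of 16 shoot arrays 8 were. In shoot r ran from -0.049 to 0.19 (median 0.026), over 0.1 in 1 of 24 pairs. The numbers were therefore not taken as pairing, and the block changed the root count for the mean of the lines to 6 and for all probe sets to 1774 from 2027. The cause of these shifts was not tested.

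Signs turned only for uncalled values. In root, CESA2 for AGR1/7 became 0.13 on its first probe set without both outlying arrays, and with 1 array left out its second ran from -0.15 to 0.033 for AGR1/7 and from -0.042 to 0.31 for AGR1/8. CESA9 for AGR1/8 ran from -0.56 to 0.0017, and was 0.0017 without both arrays. For the mean of the lines in shoot, the range with 1 array left out was -0.040 to 0.12 and -0.037 to 0.11 for CESA1, -0.032 to 0.28 for the dimmer CESA3 probe set, -0.12 to 0.14 and -0.12 to 0.058 for CESA4, -0.70 to 0.081 for CESA5, -0.036 to 0.22 for CESA7 and -0.11 to 0.20 for CESA9. The first CESA4 probe set also became -0.0017 with median centring and -0.037 with array weights. The root minus shoot effect on the first CESA2 probe set became 0.42 with a constant of 1, 0.0071 with array weights and 0.19 without both arrays, and ran from -0.36 to 0.10 with 1 array left out. The class difference in root, -0.12, became 0.12 without wild type replicate 1 and 0.11 without both arrays.

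Counts over all probe sets ran from 137 (lines as random units) to 3953 (joint fit) around 2027 for the mean of the lines in root, with 783 without wild type replicate 1. Probe sets of CESA2, and in shoot those of CESA7 and CESA9 and the second of CESA4, lay near background. With 4 arrays a group, changes near 0.5 log2 were often missed in simulated data.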
